A study of Mus musculus with 8 samples.

Results

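Transcripts of 8 intermediate filament genes of the nervous system were quantified in 8 bulk RNA-seq libraries made from dissected mouse embryonic tissue. The members were chosen by name among 36317 unique gene names. They were 5 neuronal filament genes (Nefl, Nefm, Nefh, Ina and Prph) and 3 filament genes of glia and progenitors (Vim, Nes and Gfap), and all 8 passed the filter of at least 1 RPKM in at least 2 libraries, as did 17022 genes in total. RPKM counts reads per kilobase of transcript, scaled to the mapped reads of the library, so levels can be set against each other between genes. The 4 groups held 2 libraries each: EED-cKO forebrain at embryonic day (E) 15.5, wild-type (wt) forebrain at E15.5, wt spinal cord at E13.5 and wt forebrain at E13.5. In EED-cKO embryos the knockout of Eed depends on Sox1-cre, a recombinase driven in neural progenitor cells, so that cells of other lineages in the dissected tissue are not its stated target. EED is a core subunit of PRC2, the Polycomb complex that methylates histone H3 at repressed genes. The labels do not say whether replicates were separate embryos or pools, and the spread behind each p-value is therefore that between libraries and may be technical.

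Intermediate filaments are rope-like polymers of the cytoskeleton, and their composition is a classical marker of cell type and maturity in the nervous system. Neural progenitors and radial glia carry vimentin and nestin, astrocytes add GFAP as they mature, and neurons replace these with alpha-internexin and then with the light, medium and heavy neurofilament subunits, which copolymerise in axons. Peripherin is typical of neurons that send axons out of the central nervous system, such as motor neurons and sensory ganglion neurons. Vimentin is also abundant in mesenchyme, endothelium and microglia, so its level in whole tissue is not that of neural cells alone.

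The 2 comparisons were EED-cKO against wt forebrain at E15.5, and spinal cord against forebrain in wt embryos at E13.5. Eed was at 10 and 10.6 RPKM in EED-cKO forebrain, against 25.8 and 27.9 RPKM in wt E15.5 libraries, and was called lower (log2 change -1.30, SE 0.085, limma adjusted p = 8.7e-05). Calls were made in limma on log2(RPKM + 1) at a Benjamini-Hochberg adjusted p below 0.05, a scale that understates the change of low genes. With 2 libraries against 2, an exact permutation test of a single gene cannot go below 0.333, so calls rest on the spread that limma shares across genes and groups. Of 8 spinal Hox genes, 8 were called higher in EED-cKO forebrain (summed 62.6 and 59.9 RPKM, against 0 and 0 RPKM in wt), and 7 of 8 forebrain identity genes were called lower (153.9 and 127.6 RPKM, against 809.5 and 847.9 RPKM in wt). These counts stand beside 30.2% of all tested genes called higher and 16.7% called lower in this comparison. The wt tissues carried the markers of their labels: the Hox genes summed to 1051.8 and 1277.4 RPKM in spinal cord, against 0.2 and 0.1 RPKM in E13.5 forebrain. Forebrain identity genes summed to 540.0 and 516.2 RPKM in E13.5 forebrain, against 48.6 and 59.9 RPKM in spinal cord. Most of the spinal cord sum was Neurod6, at 47.5 and 58.8 RPKM, against 81.4 and 67.2 RPKM in E13.5 forebrain. Muscle genes stood out in EED-cKO replicate 2, with a sum of 123.7 RPKM, against 8.8 RPKM in replicate 1 and 6.2 and 8.1 RPKM in the wt libraries, so results that rest on this library are given without it as well. The E15.5 columns were read in a restored row order, by which Nefl, Nefm, Nefh and Nes were reassigned at E15.5 and Ina, Prph, Vim, Gfap and Eed were not. Read as deposited, Nefl would be at 0.9 and 1.6 RPKM in EED-cKO forebrain, against 0.2 and 0.2 RPKM in wt, far below its level at E13.5.

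The genes lie at separate loci of the mouse genome except for the closely linked light and medium neurofilament genes. In GRCm38, Nefl spans bases 68083863 to 68089095 of chromosome 14 on the plus strand, and Nefm spans 68082590 to 68124846 on the minus strand. Their annotated exons overlap by 1108 bases, and because the reads were unstranded, reads from these bases cannot be assigned to either gene. Ina lies on chromosome 19 from 47014698 to 47025327, with 456 exon bases shared with Nt5c2 on the opposite strand. Nefh (chromosome 11, 4938754 to 4948064, minus strand), Prph (chromosome 15, 99055174 to 99058978, plus strand), Vim (chromosome 2, 13573927 to 13582826, plus strand), Nes (chromosome 3, 87971078 to 87980451, plus strand) and Gfap (chromosome 11, 102887336 to 102900912, minus strand) shared no annotated exon base with another gene.

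PRC2 is known in mammals for its presence at promoters rich in CG dinucleotides, so the promoters of members at the ends of the comparisons are shown. RefSeq windows of the 250 bases before a transcript start (build GRCm38.p6) were matched for 5 of the 8 members: Ina, Prph, Vim, Nes and Gfap. Printed below are Gfap, which had the largest change of the 8 in EED-cKO forebrain, Prph, which had the largest change in spinal cord, and Ina, the richest in CG. Each is written 5′ to 3′ on the strand of its gene, with CG dinucleotides in capitals.
Gfap, chr11:102897201-102897450, minus strand: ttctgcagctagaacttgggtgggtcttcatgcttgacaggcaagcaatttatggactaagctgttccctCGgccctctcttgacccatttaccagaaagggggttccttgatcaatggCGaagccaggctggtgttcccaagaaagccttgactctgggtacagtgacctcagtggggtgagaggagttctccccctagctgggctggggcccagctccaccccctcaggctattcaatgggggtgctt
Prph, chr15:99054924-99055173, plus strand: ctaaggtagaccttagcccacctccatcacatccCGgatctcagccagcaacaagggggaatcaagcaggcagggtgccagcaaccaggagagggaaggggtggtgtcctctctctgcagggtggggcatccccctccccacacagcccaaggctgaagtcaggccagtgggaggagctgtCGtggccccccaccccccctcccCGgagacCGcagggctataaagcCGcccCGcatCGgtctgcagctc
Ina, chr19:47014431-47014680, plus strand: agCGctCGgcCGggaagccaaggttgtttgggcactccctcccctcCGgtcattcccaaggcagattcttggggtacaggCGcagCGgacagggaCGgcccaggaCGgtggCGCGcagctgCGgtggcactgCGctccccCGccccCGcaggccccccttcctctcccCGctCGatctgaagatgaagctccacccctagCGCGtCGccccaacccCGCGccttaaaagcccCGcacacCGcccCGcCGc
The Gfap window held 2 CG dinucleotides, the Prph window 7 and the Ina window 25. The windows of Vim and Nes held 8 and 15. Among 32851 windows of the same length the median was 6, with quartiles of 2 and 16, and Ina had more than 89.3% of them while Gfap had more than 18.8%. The motif TATAAA, searched on both strands, lay 31 bases before the Prph start and 32 bases before the Vim start, and 12.4% of the windows held it. The motif GGGCGG was found on the opposite strand in Ina, Prph and Nes, and 32.7% of the windows held it on either strand. These matches describe the letters of the windows and show no binding.

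In EED-cKO forebrain 6 of the 8 filament genes were called higher than in wt and 0 were called lower. They were the neuronal Nefl, Nefh and Ina, and all 3 genes of glia and progenitors (Vim, Nes and Gfap). The changes ranged from 0.37 for Nes to 1.67 for Gfap on the log2 scale, and Nefm and Prph did not pass the test. Of all tested genes 46.9% were called in this comparison, made up of 30.2% higher and 16.7% lower. Scaling moved that balance: 64.5% of calls were higher as reported, but 45.4% after median ratio scaling and 45.1% after quantile normalization, when the median log2 change of all tested genes was -0.039 and -0.051 in place of 0.076. All 8 members had a positive change under both scalings, but fewer were called: 2 neuronal and 2 glia and progenitor genes after median ratio scaling, and 2 and 3 after quantile normalization. For the 8 members the EED-cKO and wt libraries did not overlap, as was the case for 70.3% of tested genes. In bulk tissue, a change in the number of cells of a type and a change in RNA per cell cannot be told apart.

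Gfap, the filament of astrocytes, had the largest change of the 8. It was at 6.9 and 7.7 RPKM in EED-cKO forebrain, against 1.7 and 1.5 RPKM in wt. Both EED-cKO libraries stood well above both wt libraries, and the mean level was 4.56-fold higher (log2 change 1.67, SE 0.088, limma adjusted p = 4.1e-05). The change exceeded that of 98.7% of tested genes. At both ages Gfap remained a low transcript next to the other filaments, and in the E13.5 libraries it was at 0.1 RPKM, the rounding step of the table, so it entered the test only through the E15.5 libraries.

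Vim, the vimentin gene, was the most abundant of the 8 in EED-cKO forebrain. It was at 742.3 and 757.3 RPKM in EED-cKO forebrain, against 381.7 and 390.3 RPKM in wt. The libraries of each genotype lay close together, and the mean was 1.94-fold higher in EED-cKO forebrain (log2 change 0.96, SE 0.086, limma adjusted p = 2.7e-04). Nes, the nestin gene of neural progenitors, was at 43.2 and 46.7 RPKM in EED-cKO forebrain, against 37.1 and 32.1 RPKM in wt. The Nes groups were separated by a narrow gap, and the mean was 1.3-fold higher (log2 change 0.37, SE 0.1, limma adjusted p = 0.0206). That call was lost after median ratio scaling (log2 change 0.21, limma adjusted p = 0.106), with only the 4 E15.5 libraries (0.0702) and without the filter (0.0539). It was also lost without EED-cKO replicate 1 (log2 change 0.43), without EED-cKO replicate 2 (0.32) and without wt replicate 2 (0.27). The row order as deposited gives the name Nes to other E15.5 values and says nothing about Nes. The difference between the changes of Vim and Nes, its partner in progenitor filaments, was not tested. Within a library, Vim was 17.2 and 16.2 times the level of Nes in EED-cKO forebrain, against 10.3 and 12.2 times in wt.

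**Figure D1:**
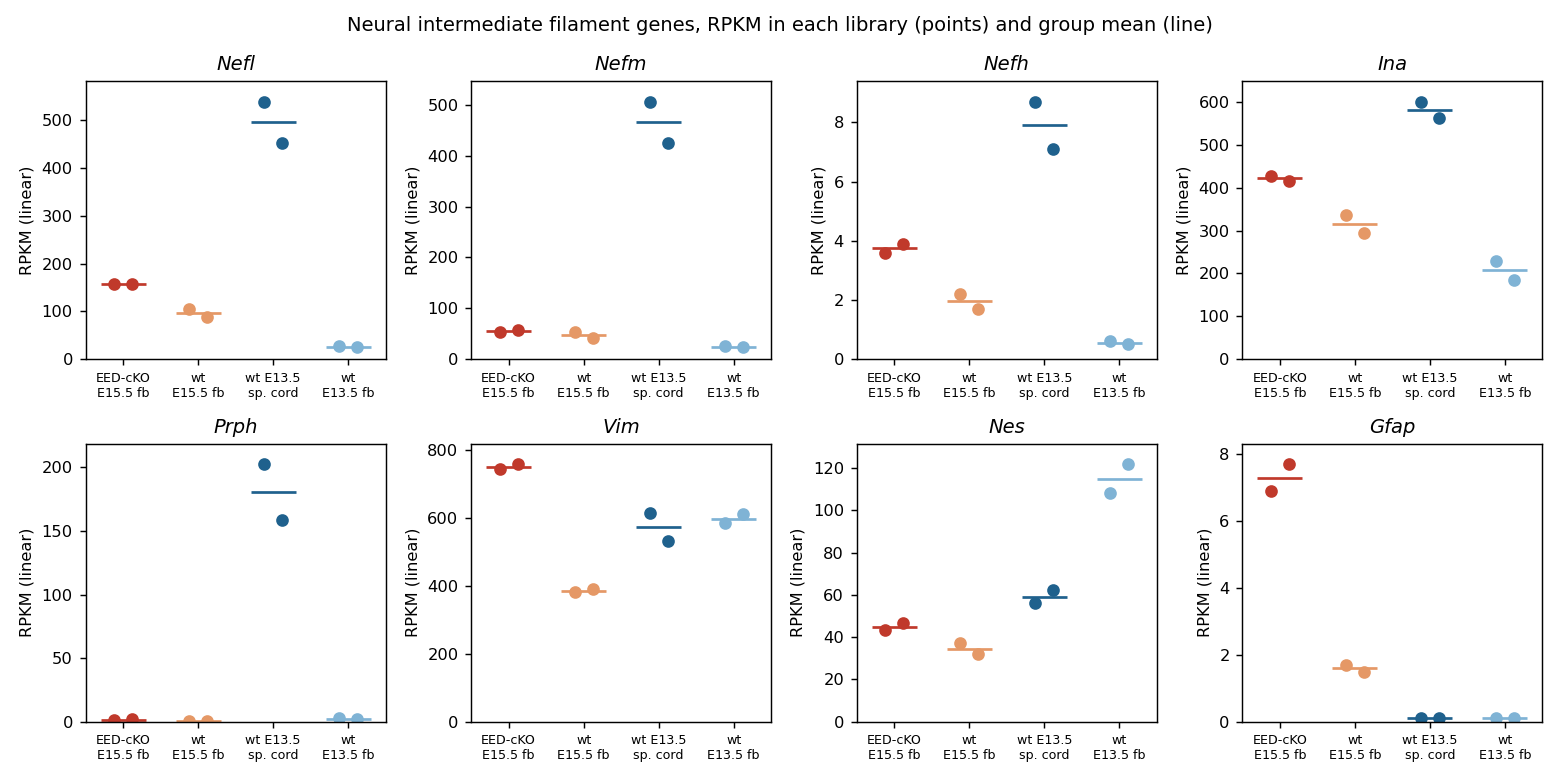
Level of each filament gene in RPKM (linear axes from 0) in the 8 libraries, shown as points with the mean of each group as a line; fb is forebrain. The EED-cKO libraries lie above both wt E15.5 libraries in each panel, and the neuronal genes are highest in spinal cord.

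The neurofilament subunits, which form the axonal filament together, differed in their calls in EED-cKO forebrain: Nefl and Nefh passed the test and Nefm did not, with the difference between them untested. Nefl, the light subunit, was at 156.3 and 156.4 RPKM in EED-cKO forebrain, against 105.8 and 87.5 RPKM in wt. The mean level of Nefl was 1.62-fold higher (log2 change 0.69, SE 0.118, limma adjusted p = 0.0032). Nefh, the heavy subunit that is acquired late in axon maturation, was at 3.6 and 3.9 RPKM in EED-cKO forebrain, against 2.2 and 1.7 RPKM in wt. It was called higher with a log2 change of 0.69 (SE 0.128, limma adjusted p = 0.00446), and this call was lost under quantile normalization (log2 change 0.31, adjusted p = 0.0592; range over the alternatives 0.00384 to 0.0592). Nefm, the medium subunit, was at 53.9 and 57.3 RPKM in EED-cKO forebrain, against 53.6 and 41.7 RPKM in wt. The highest wt library nearly reached the lowest EED-cKO library, and Nefm did not pass the test (log2 change 0.23, SE 0.133, limma adjusted p = 0.2). Without wt replicate 1 the log2 change of Nefm was 0.41. The row order as deposited gives the name Nefm to other E15.5 values and says nothing about Nefm. Within each library the ratio of Nefl to Nefm was 2.90 and 2.73 in EED-cKO forebrain, against 1.97 and 2.10 in wt. These groups did not overlap, and the ratio rests on a pair of genes whose overlapping exons the reads cannot separate.

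Ina, which encodes alpha-internexin, the early neuronal filament, was the most abundant neuronal member. It was at 428.2 and 416.8 RPKM in EED-cKO forebrain, against 336.5 and 294.8 RPKM in wt. Ina was called higher at a mean 1.34 times the wt level (log2 change 0.42, SE 0.116, limma adjusted p = 0.0219). The call was lost after median ratio scaling (log2 change 0.26, limma adjusted p = 0.0907), with only the 4 E15.5 libraries (0.0504) and without the filter (0.0575). It was also lost without EED-cKO replicate 1 (log2 change 0.40), without EED-cKO replicate 2 (0.44) and without wt replicate 2 (0.33). Prph, the peripherin gene, was at 1.2 and 2.3 RPKM in EED-cKO forebrain, against 0.9 and 0.8 RPKM in wt. Prph did not pass the test (log2 change 0.54, SE 0.23, limma adjusted p = 0.0915), and without EED-cKO replicate 1 it did (log2 change 0.84, adjusted p = 0.0476). The higher Prph value was in EED-cKO replicate 2, the library with the muscle genes. The same library was higher for Sncg, a synuclein gene abundant in peripheral neurons (14.0 RPKM, against 8.8 RPKM in replicate 1), and for Calca, the gene of the sensory peptide CGRP (4.3 RPKM, against 1.8 RPKM), and the part of these cells in the Prph value was not tested.

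**Figure D2:**
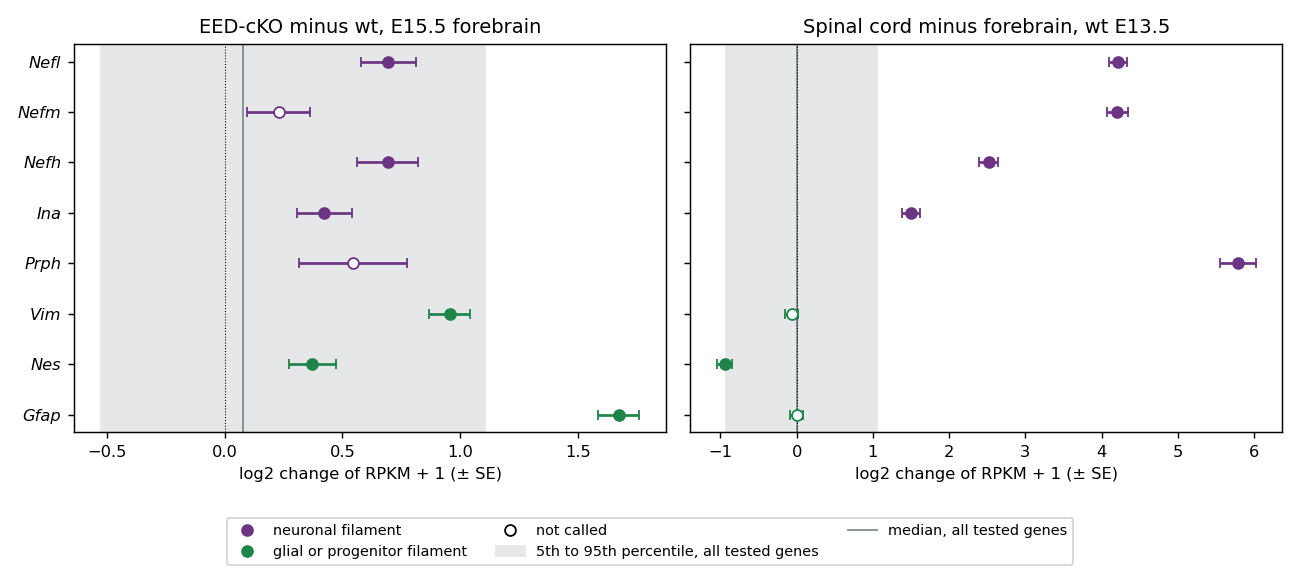
Change of each filament gene on the log2(RPKM + 1) scale with its standard error, EED-cKO minus wt in E15.5 forebrain on the left and spinal cord minus forebrain in wt E13.5 on the right. Filled points were called, and the grey band runs from the 5th to the 95th percentile of all 17022 tested genes. On the left only Gfap lies beyond the band. On the right the 5 neuronal genes lie beyond it above and Nes just beyond it below.

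The balance between the filament classes was lower on the neuronal side in EED-cKO forebrain. The 5 neuronal genes summed to 643.2 and 636.7 RPKM in EED-cKO forebrain, against 499.0 and 426.5 RPKM in wt. The 3 genes of glia and progenitors summed to 792.4 and 811.7 RPKM in EED-cKO forebrain, against 420.5 and 423.9 RPKM in wt. Both sums were higher in EED-cKO forebrain, and the sum of glia and progenitor genes differed by the larger factor. Vim formed most of that sum, at 742.3 and 757.3 RPKM in EED-cKO forebrain, against 381.7 and 390.3 RPKM in wt. The balance thus rests largely on Vim, and it was not computed without Vim. The ratio of the neuronal to the other sum was 0.812 and 0.784 in EED-cKO forebrain, against 1.19 and 1.01 in wt, a difference of -0.45 in the mean log2 ratio. The ratio fell below 1 in both EED-cKO libraries and was above 1 in both wt libraries, and this difference carries no test. Vim made up 51.7% and 52.3% of the summed level of the 8 genes in EED-cKO forebrain, against 41.5% and 45.9% in wt. The share of Ina was 29.8% and 28.8% in EED-cKO forebrain, against 36.6% and 34.7% in wt.

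**Figure D3:**
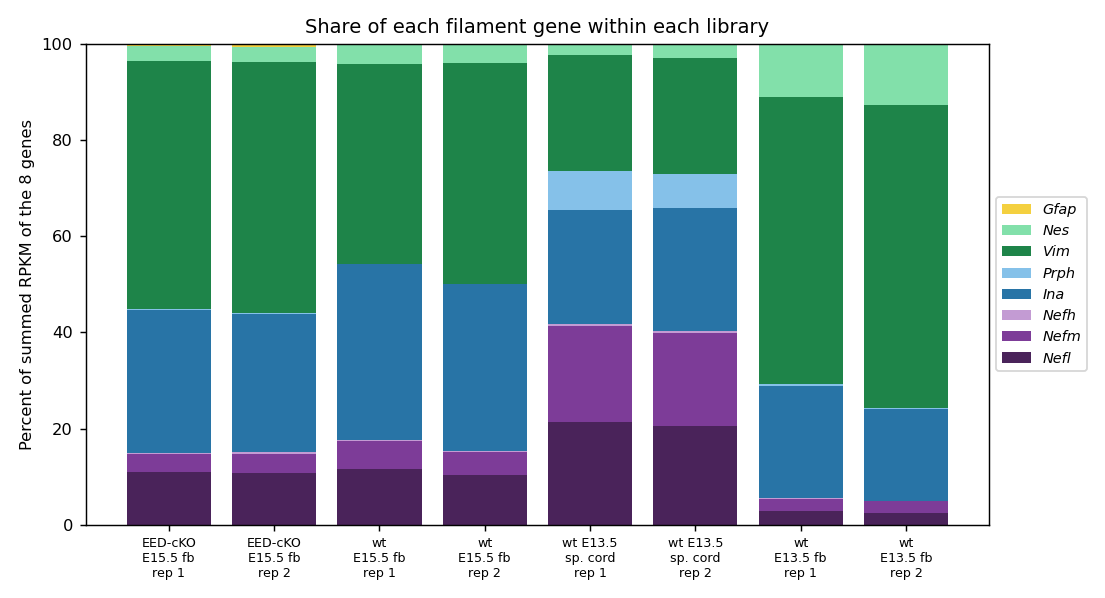
Share of each filament gene in the summed RPKM of the 8 genes, in percent, for each library; the bars of Nefh, Gfap and, in forebrain, Prph are too thin to see. Vim and Ina together form most of each forebrain bar, and Nefl, Nefm and Prph take a larger part of the spinal cord bars.

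Vim is expressed by several lineages, and their markers differed between the genotypes too. Of 14 meningeal and mesenchymal genes, 14 were called higher and 0 lower in EED-cKO forebrain. Their median log2 change was 1.66, against 0.076 over all tested genes, of which 30.2% were called higher and 16.7% lower. Their summed level was 1213.7 and 1439.6 RPKM in EED-cKO forebrain, against 433.2 and 318.4 RPKM in wt. Twist1, a transcription factor of mesenchyme, changed by 3.04 (SE 0.148, limma adjusted p = 3.1e-05), and Col1a1, the fibrillar collagen, by 2.37 (SE 0.246, adjusted p = 4.4e-04). All 12 endothelial and pericyte genes were called higher (summed 352.7 and 368.6 RPKM in EED-cKO, against 246.4 and 226.5 RPKM in wt), as were 7 of 8 tested microglial genes (156.5 and 167.8 RPKM in EED-cKO, against 85.2 and 93.0 RPKM in wt). Without EED-cKO replicate 2 these counts were 14, 9 and 5. The part of these cells in the level of Vim was not tested.

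The other genes of radial glia and astrocytes, the cells in which Vim and Gfap are best known, moved in both directions. Of 20 such genes 11 were called higher and 3 lower, with a median log2 change of 0.54, and without EED-cKO replicate 2 the counts were 8 and 2. After median ratio scaling they were 10 and 6. Over all tested genes 30.2% were called higher and 16.7% lower. Those with the largest changes were Aqp4, the water channel of astrocyte endfeet (log2 change 2.58, SE 0.213), Slc1a2, a glutamate transporter (1.72, SE 0.169), Gja1, the gap junction protein connexin 43 (1.28, SE 0.08), and Hopx, a radial glia marker (1.22, SE 0.142), each with a limma adjusted p under 0.05. Aqp4 had 11.9 and 12.9 RPKM in EED-cKO forebrain, against 1.8 and 0.8 RPKM in wt. The 3 that fell were Nfib, a transcription factor of gliogenesis (log2 change -0.96, SE 0.139), Hes5, a Notch target of progenitors (-0.30, SE 0.067), and Fabp7, the radial glia fatty acid binding protein (-0.27, SE 0.086). Of these, the call of Fabp7 was lost in each of 7 fits that left out 1 library other than wt E15.5 replicate 1, and that of Hes5 without EED-cKO replicate 1. Sox2 and Pax6, transcription factors of progenitors in which Nes is also found, had log2 changes of -0.13 and -0.28 and did not pass the test. Hes1 (log2 change 0.77, SE 0.097, limma adjusted p = 9.5e-04) and Sox9 (0.41, SE 0.131, adjusted p = 0.0385), of the same list, were called higher. The Sox9 call was lost after median ratio scaling (log2 change 0.25).

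Neuronal cytoskeleton genes outside the filament family were called lower more often than higher. Of 16 microtubule and growth cone genes 1 was called higher and 6 lower, with a median log2 change of -0.09. Over all tested genes 30.2% were called higher and 16.7% lower. Tubb3, a neuronal tubulin, was at 1509.2 and 1427.6 RPKM in EED-cKO forebrain, against 2198.0 and 2436.5 RPKM in wt (log2 change -0.66, SE 0.097, limma adjusted p = 0.00177). Tubb2b, another tubulin of newborn neurons, and Stmn1, a microtubule destabilising protein, changed by -0.65 and -0.64. The gene called higher was Map1a, a microtubule-associated protein of mature neurons (log2 change 1.12, SE 0.168, adjusted p = 0.00187). Fitted on the 4 E15.5 libraries alone, 1 gene of the list was called in each direction. Under quantile normalization 2 were called higher and 3 lower. Gap43, the growth cone protein, had a log2 change of -0.0068 and did not pass the test.

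Of 14 genes whose products link, move or modify neural filaments 4 were called higher and 1 lower in EED-cKO forebrain, with a median log2 change of 0.25. The share called higher was near the 30.2% of all tested genes. Plec, the plectin linker, was at 8.8 and 10.3 RPKM in EED-cKO forebrain, against 3.3 and 2.2 RPKM in wt (log2 change 1.5, SE 0.159, limma adjusted p = 4.8e-04). The activators of Cdk5, a kinase that phosphorylates neurofilament tails, moved in opposite directions: Cdk5r2 by 1.03 (SE 0.14, adjusted p = 0.00125) and Cdk5r1 by -0.46 (SE 0.079, adjusted p = 0.0034). Without EED-cKO replicate 2 the counts were 2 and 1, and after median ratio scaling 2 and 4. Among 18 tested genes of motor, cranial and peripheral neurons, 13 were called higher and 1 lower, with a median log2 change of 0.90. The gene that fell was Th, the enzyme of catecholamine synthesis (log2 change -0.50, SE 0.166, limma adjusted p = 0.0427), and its call was lost without EED-cKO replicate 1 (0.213) and in 5 other fits that left out 1 library (0.0723 to 0.17). The largest changes were those of the transcription factors Tlx3 (2.80), Mnx1 (2.75), Pou4f2 (2.60) and Isl2 (1.82). Their levels stayed low: Tlx3 was at 7.0 and 6.3 RPKM in EED-cKO forebrain, against 0.1 and 0.1 RPKM in wt.

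Calls in the wider intermediate filament family were more often higher than lower, as they were over all tested genes (30.2% higher and 16.7% lower). Of 21 lamin, keratin and other filament genes 16 were tested, and 10 were called higher and 2 lower in EED-cKO forebrain, with a median log2 change of 0.67. Without EED-cKO replicate 2 the counts were 7 and 1, and after median ratio scaling 8 and 2. The keratins of simple epithelia had the largest changes: Krt7 (log2 change 1.69, SE 0.123), Krt8 (1.67, SE 0.169), Krt18 (1.44, SE 0.15) and Krt19 (1.06, SE 0.217). Krt8 and Krt18, which pair into 1 filament, were at 8.7 and 10 RPKM and at 12.5 and 12.3 RPKM in EED-cKO forebrain, against 2.0 and 2.5 RPKM and 4.1 and 3.8 RPKM in wt. The nuclear lamins split. Lmna, the A-type lamin, was at 39.8 and 38.4 RPKM in EED-cKO forebrain, against 20.6 and 18.9 RPKM in wt (log2 change 0.95, SE 0.071, limma adjusted p = 1.4e-04). Lmnb1, a B-type lamin, was at 99.0 and 97.1 RPKM in EED-cKO forebrain, against 170.3 and 172.7 RPKM in wt (log2 change -0.80, SE 0.054, adjusted p = 9.6e-05). Lmnb2, the other gene that fell, changed by -0.21 (SE 0.059, adjusted p = 0.0233) and lost its call without EED-cKO replicate 2 (adjusted p = 0.115).

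**Figure D4:**
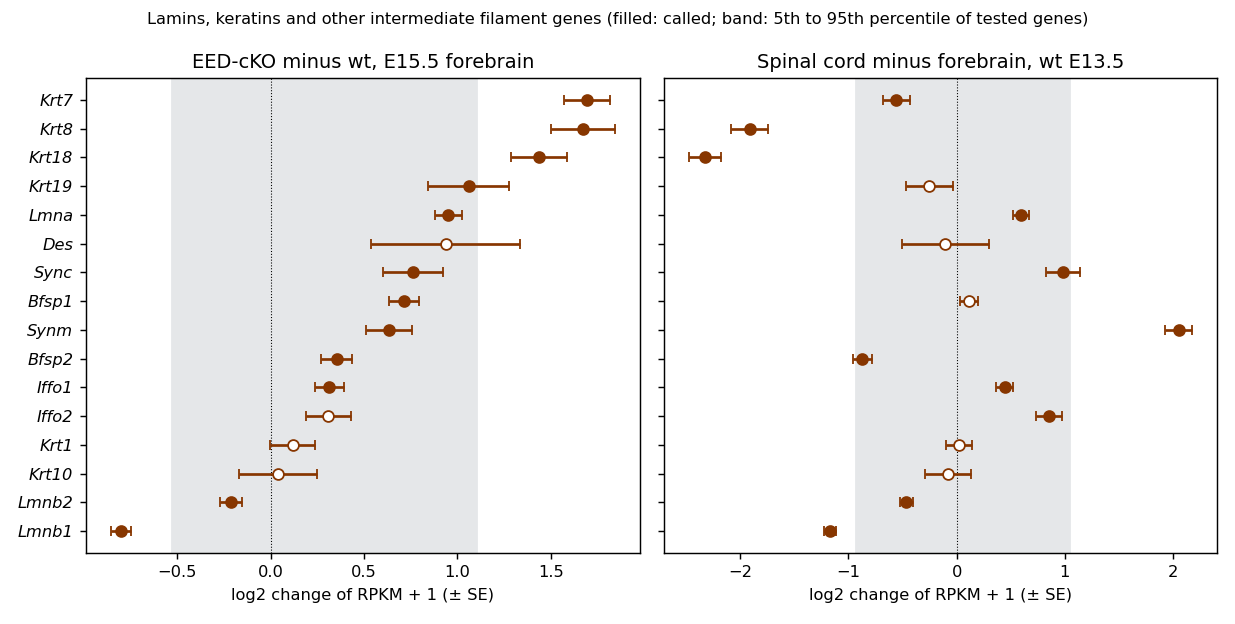
Change of the 16 tested lamin, keratin and other intermediate filament genes on the log2(RPKM + 1) scale with its standard error, EED-cKO minus wt on the left and spinal cord minus forebrain on the right. Filled points were called, and the grey band holds the 5th to the 95th percentile of tested genes. Krt8 and Krt18 lie far above 0 on the left and far below 0 on the right.

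Between the wt tissues at E13.5 the classes separated: the 5 neuronal filament genes were called higher in spinal cord, and of the glia and progenitor genes Nes was called lower while Vim and Gfap did not pass the test. Of all tested genes 45.7% were called, 21.8% higher and 23.9% lower, and the median log2 change was 0. The neuronal changes ran from 1.49 for Ina to 5.79 for Prph, all above the 95th percentile of tested genes at 1.05. The spinal cord and forebrain libraries did not overlap for the 5 neuronal genes and Nes, nor for 76.3% of tested genes.

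Nefl was at 539.4 and 452.7 RPKM in spinal cord, against 27.1 and 24.2 RPKM in forebrain. Nefm was at 506.8 and 425.9 RPKM in spinal cord, against 25.5 and 23.0 RPKM in forebrain. The light and medium subunits moved nearly alike, with means 19.3 and 19.2 times those of forebrain (log2 changes 4.22, SE 0.118, and 4.21, SE 0.133, limma adjusted p = 1.2e-06 and 2.0e-06). Nefh was at 8.7 and 7.1 RPKM in spinal cord, against 0.6 and 0.5 RPKM in forebrain (log2 change 2.52, SE 0.128, adjusted p = 1.4e-05). The heavy subunit was thus scarce in both tissues: Nefh was 1.61% and 1.57% of the Nefl level in spinal cord, against 2.21% and 2.07% in forebrain. Ina was at 601.3 and 562.4 RPKM in spinal cord, against 229.1 and 184.7 RPKM in forebrain (log2 change 1.49, SE 0.116, adjusted p = 7.8e-05). Ina had the smallest change of the neuronal genes, and its level was 1.11 and 1.24 times that of Nefl in spinal cord, against 8.45 and 7.63 times in forebrain. Nefl and Nefm were at almost the same level within each tissue, with a ratio of 1.06 in both spinal cord libraries, against 1.06 and 1.05 in forebrain. Both this ratio and the like changes rest on genes whose overlapping exons the reads cannot separate. The part of shared reads in them was not tested.

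Prph had the largest change of the 8 genes. It was at 202.4 and 158.3 RPKM in spinal cord, against 2.8 and 1.8 RPKM in forebrain, a mean 78.4-fold higher (log2 change 5.79, SE 0.23, limma adjusted p = 5.4e-06). The spinal cord libraries also held genes of sensory ganglia. Avil, an actin-binding protein of sensory neurons, was at 14.4 and 9.3 RPKM in spinal cord, against 0.4 and 0.3 RPKM in forebrain. Replicate 1 was the higher for Avil as it was for Prph, and the part of ganglion tissue in the neuronal filament values was not tested. Motor neuron genes were present as well: Mnx1, a motor neuron transcription factor, was at 7.3 and 6.3 RPKM in spinal cord, against 0 and 0 RPKM in forebrain. Of 18 tested genes of motor, cranial and peripheral neurons 17 were called higher in spinal cord and 0 lower, with a median log2 change of 2.99. Over all tested genes 21.8% were called higher and 23.9% lower. Among the largest changes of the list were Sncg (6.34), Tlx3 (5.91) and Isl2 (4.12).

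Vim was at 613.2 and 530.3 RPKM in spinal cord, against 584.4 and 610.9 RPKM in forebrain. These values overlapped, and the log2 change of -0.067 (SE 0.086, limma adjusted p = 0.569) turned positive without spinal cord replicate 2 (0.037) and under quantile normalization (0.053), in neither case past the threshold. Nes was at 56.0 and 62.4 RPKM in spinal cord, against 108.0 and 121.7 RPKM in forebrain. The mean level of Nes was 0.515 times that of forebrain (log2 change -0.94, SE 0.1, limma adjusted p = 3.3e-04). The difference between the changes of the progenitor filament genes was not tested. Within a library, Vim was 11.0 and 8.5 times the level of Nes in spinal cord, against 5.41 and 5.02 times in forebrain. Gfap was at 0.1 RPKM in all 4 libraries of this age, so no difference was detectable on this scale. For the lists that follow, 21.8% of all tested genes were called higher in spinal cord and 23.9% lower. Mesenchymal genes, in whose cells Vim is abundant too, summed to 613.8 and 606.9 RPKM in spinal cord, against 405.4 and 431.1 RPKM in forebrain, with 6 of 14 called higher and 3 lower (median log2 change 0.17), and their part in the Vim level was not tested. The radial glia and astrocyte genes were divided, with 8 of 20 called higher and 9 lower in spinal cord: Hopx (log2 change 2.52) and Aldh1l1, a folate enzyme of astrocytes (2.26), were among the higher, and the progenitor factors Pax6 (-2.23) and Sox2 (-1.37) among the lower.

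The neuronal sum was 1858.6 and 1606.4 RPKM in spinal cord, against 285.1 and 234.2 RPKM in forebrain. The sum of the glia and progenitor genes was 669.3 and 592.8 RPKM in spinal cord, against 692.5 and 732.7 RPKM in forebrain. The neuronal sum was the larger in spinal cord and the smaller in forebrain, with ratios of 2.78 and 2.71 in spinal cord, against 0.412 and 0.320 in forebrain, a difference of 2.92 in the mean log2 ratio. Neuronal genes made up 73.5% and 73.0% of the summed level of the 8 genes in spinal cord, against 29.2% and 24.2% in forebrain. Other neuronal cytoskeleton genes were higher by smaller amounts: 11 of 16 microtubule and growth cone genes were called higher and 0 lower, with a median log2 change of 0.59, and the largest change was that of Mapt, the tau gene (1.19, SE 0.134). Of the 14 linker, transport and turnover genes 8 were called higher and 0 lower, among them Cdk5r2 (1.76, SE 0.14), Kif5a, a neuronal kinesin (1.23, SE 0.135), and Plec (1.12, SE 0.159). Of the 16 other intermediate filament genes 5 were called higher and 6 lower. Beside these 3 lists, 21.8% of all tested genes were called higher and 23.9% lower. Synm, the synemin gene whose product assembles with vimentin, was at 12.8 and 11.0 RPKM in spinal cord, against 2.1 and 2.1 RPKM in forebrain (log2 change 2.05, SE 0.124, limma adjusted p = 2.8e-05). Krt18 was at 0.1 and 0.3 RPKM in spinal cord, against 5.9 and 4.2 RPKM in forebrain (log2 change -2.32, SE 0.15, adjusted p = 3.6e-05).

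**Figure D5:**
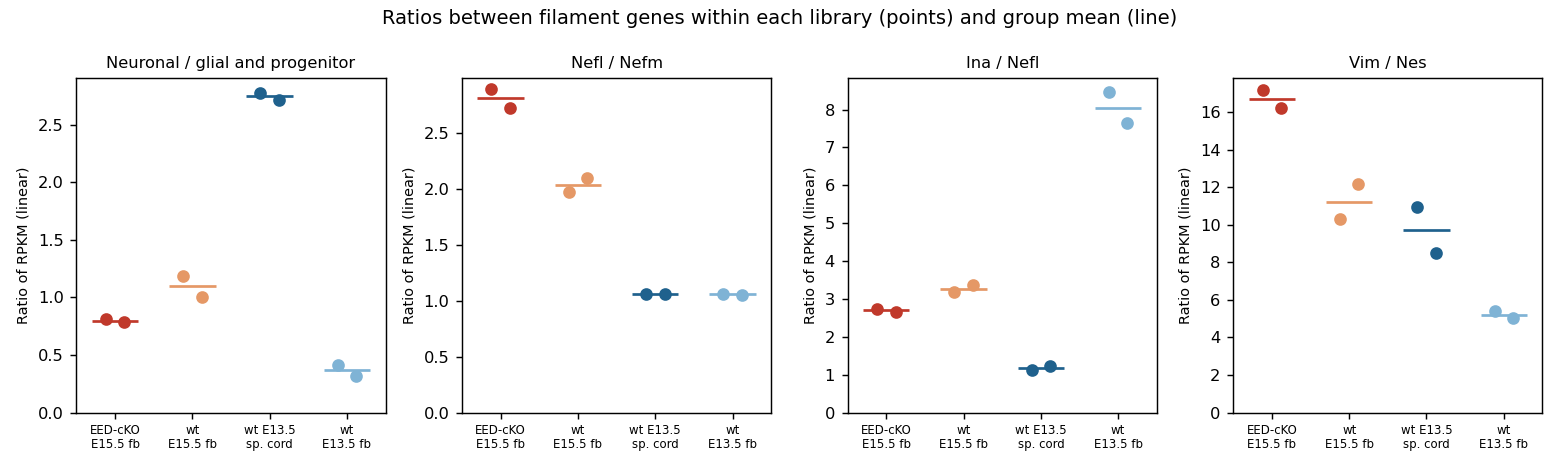
Ratios of RPKM within each library (points, linear axes from 0) with the group mean as a line: the 5 neuronal over the 3 glia and progenitor genes, Nefl over Nefm, Ina over Nefl and Vim over Nes. The first ratio is lower in EED-cKO than in wt forebrain at E15.5 and far higher in spinal cord than in forebrain at E13.5; Nefl over Nefm is close to 1 in all E13.5 libraries.

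The ages cannot be compared by a test, because the RPKM values of a library summed to 761647 to 843296 at E15.5, against 378294 to 397320 at E13.5, and the rows of the E15.5 columns stood in another order. As a description, the wt forebrain median log2 difference over all tested genes, E15.5 minus E13.5, was 0.52. The neuronal Nefl (1.87), Nefm (0.94), Nefh (0.92) and Ina (0.61) and the glial Gfap (1.24) lay above that median, and Prph (-0.82), Vim (-0.63) and Nes (-1.70) lay below it. Ratios within a library are free of its scale, but they would still move with gene models or lengths that differed between the ages. Vim was 10.3 and 12.2 times the level of Nes in wt forebrain at E15.5, against 5.41 and 5.02 times at E13.5. The ratio of the neuronal to the other sum was 1.19 and 1.01 in wt forebrain at E15.5, against 0.412 and 0.320 at E13.5, and the value in EED-cKO forebrain lay between these wt ages.

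The order of levels over the groups, set across ages on different scales, was as follows. Spinal cord was highest and wt E13.5 forebrain lowest for Nefl, Nefm, Nefh and Ina, with EED-cKO forebrain above wt E15.5 forebrain in between; for Nefm the values next to each other, 53.9 RPKM in EED-cKO and 53.6 RPKM in wt E15.5 forebrain, did not differ beyond their spread. Prph was highest in spinal cord and at 0.8 to 2.8 RPKM in the 6 forebrain libraries. Vim was highest in EED-cKO forebrain and lowest in wt forebrain of the same age, with the E13.5 tissues overlapping in between. Nes was highest in wt E13.5 forebrain, followed by spinal cord, EED-cKO forebrain and wt E15.5 forebrain. Within every library Vim or Ina was the most abundant of the 8 genes: Vim in 7 libraries and Ina, at 562.4 RPKM against 530.3 RPKM of Vim, in spinal cord replicate 2.

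Across the 8 libraries, genes with a pattern like that of each member were listed by Pearson's r on the log2 scale, as a description over points that share age, tissue and scale. The nearest genes to Nefl were Ina (r = 0.986), Lxn (0.982) and Ret (0.978), and the nearest to Ina were Nefl (0.986), Rnft2 (0.983) and Ptchd2 (0.980). Nefh was nearest to Nefl (0.993), Ina (0.990) and Tshz1 (0.985). Nefl and Ina thus headed each other's lists, among 9902 genes of at least 10 RPKM in some group; Nefh stayed below that level and could be listed for no gene. Nefm was nearest to Sncg (0.988), Npr2 (0.986) and Pirt (0.984), and among the nearest to Prph were Prrxl1 (0.993), a sensory neuron transcription factor, and Ppp1r17 (0.991). Prrxl1 was at 28 and 26.5 RPKM in spinal cord and at most 0.7 RPKM in the forebrain libraries. The nearest to Vim were Olig3 (0.982), Igf2r (0.965) and Tln1 (0.963), to Nes Cdk12 (0.987), Gabpb2 (0.987) and Erbb2ip (0.985), and to Gfap Ptrf (0.999), Plcd3 (0.999) and Plk5 (0.998). Between the classes, Vim and Nes were correlated with Nefl at r = 0.088 and r = -0.51.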

How the data were processed

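Total RNA of dissected tissue was made into unstranded libraries and sequenced as single-end reads of 50 bases, per the labels' protocols. The authors deposited 1 table of RPKM values for the 8 libraries, in steps of 0.1. The aligner and counter are not given in the sources used here, and the submitters' processing notes name the builds mm9 and GRCm38 without their roles. The table holds no counts, and library depth is therefore unknown.

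The E15.5 columns follow the gene names alphabetically, ignoring case and hyphens, not in the order of the name column. Assigning them so gave r = 0.948 between the wt forebrain ages, against 0.760 as deposited, and in windows of 41 names around each of the 8 members r was highest without any further shift. Of the tested genes, 9426 of 17022 had the same row in both orders. For 16 repeated names the row of highest mean was kept.

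Values were taken as log2(RPKM + 1) and fitted in limma 3.58.1 (R 4.3.3, eBayes with trend, two-sided) with 4 group means over all 8 libraries and 4 residual degrees of freedom. The test took genes that reached 1 RPKM in 2 or more libraries, and p-values were adjusted over all of them by Benjamini and Hochberg. The fit was tested on simulated data. Ages were not tested against each other. From each gene list, up to 4 called genes of largest change, members that went against the list, and some genes chosen after their values were seen were named. The last were the uncalled Sox2, Pax6 and Gap43 and the called Sncg, Calca, Hes1 and Sox9 in EED-cKO forebrain. In spinal cord they were the called Avil, Mnx1 and Neurod6. Some genes that this rule named are not reported here. Drgx was the 1 list entry not matched by name. The members and lists were chosen with earlier results of these data known. Alternatives were other pseudocounts (0.1 and 0.5), filters (none, or 5 RPKM), scalings, row orders, subsets of libraries and each library left out. Positions come from GENCODE M21 and promoter windows from RefSeq.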

Additional observations from a re-analysis of the deposited data

How the results depend on the processing

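The 16 member results (8 genes in 2 comparisons) gave 296 values over at most 19 alternative settings each. In 277 the direction and the side of the threshold were as reported, in 14 a call was lost, in 3 a call was gained and in 2 the sign changed. Vim and Gfap were called higher in EED-cKO forebrain in every alternative run, with log2 changes of 0.80 to 0.97 and 1.34 to 2.12. Nefl was called in every alternative in the restored row order, with log2 changes of 0.54 to 0.83. The deposited order gives the names Nefl, Nefm, Nefh and Nes to other E15.5 values and says nothing about these genes. The counts above include that order. The sign changes were those of Vim between the tissues, at 0.053 under quantile normalization and 0.037 without spinal cord replicate 2, with -0.17 to 0.037 over the fits that left out 1 library (adjusted p over its alternatives 0.215 to 0.86). The neuronal genes and Nes kept their calls in spinal cord in every alternative run. Calls over all genes in EED-cKO forebrain numbered 7987 as reported, 4777 with only its 4 libraries, 4929 among genes whose row was the same in both orders, and 4922 to 9606 with 1 library left out, the lowest without EED-cKO replicate 2. Between the tissues they numbered 7784, with 4792 among same-row genes and 5205 to 9320 with 1 library left out. The log2 difference of the filament ratio between tissues was 2.92, 3.98 as a difference of mean log2 values, and 2.74 to 3.10 with 1 library left out; in EED-cKO forebrain it was -0.45, and -0.57 to -0.33 with 1 library left out. The counts among same-row genes came from 9426 tested genes in place of 17022, so they cannot be read as calls lost. Where a library was left out, the lone sample was assumed to vary like the other groups.

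Deviations of same-numbered libraries from their group means had r of -0.12 to 0.21 between groups, highest between wt E13.5 forebrain and spinal cord. With 2 libraries per group, these values cannot decide whether the numbers pair the samples. With a replicate block 7608 and 7466 genes were called, and no member's call changed. The smallest changes are limited by the 0.1 RPKM steps of low genes and by 2 libraries per group; the median SD of replicates on the log2 scale was 0.117 in wt E15.5 forebrain, against 0.049 to 0.058 in the other groups.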
